A study of Mus musculus with 46 samples.

Results

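The collagen genes were read in mouse visceral adipose tissue from 20 RNA-seq libraries, 5 in each of 4 groups. Members were every gene symbol of the form Col, a number, a and a number that reached 0.3 FPKM in at least 5 of the 20 libraries, and 30 of the 44 such symbols in the table of 24338 genes did so. FPKM is a fragment count divided by transcript length and library depth, so levels of genes of different length can be set side by side. Depth is here a size factor of each library and not its total reads. The groups were CORT_5w, animals given corticosterone and labelled as active Cushing's syndrome, with their controls VEH_5w, and CORT_15w, corticosterone animals labelled as recovered, with their controls VEH_15w. Corticosterone is the main glucocorticoid of the mouse, and Cushing's syndrome is the disease of long glucocorticoid excess. The labels used here give no strain, sex, age, dose or route, and number the libraries 1 to 5 without saying whether each came from 1 animal, so p-values measure only the spread between libraries. The comparison at 5 weeks asks what active disease does, and the comparison at 15 weeks asks what is left after recovery.

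Collagens are triple helices of 3 chains. Fibrillar collagens (types I, III and V here, and the little studied XXVII) form the tensile fibres of connective tissue, with type V on the inside of type I fibrils, where it helps to set their diameter. Type IV forms the sheet of the basement membrane, which in fat surrounds each adipocyte and each vessel, and type VI forms beaded microfilaments that link the basement membrane to the fibres and are abundant in fat. Other types coat fibrils (XII, XIV, XVI), sit at the edge of basement membranes (XV and XVIII, the multiplexins), form short networks (VIII and X) or span the membrane (XXIII).

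The libraries held 25.1 to 42.6 M reads over genes (median 30.1 M), as recovered from the FPKM values. Adipocyte transcripts were high in all of them: the summed FPKM of Adipoq, Plin1, Fabp4, Lipe, Cidec and Pparg ran from 13440 to 27450. In 7 libraries Alb, Prm2 or Crisp1, transcripts of liver, testis and epididymis, exceeded 100 FPKM. These were CORT_5w libraries 2 (Alb), 3 (Prm2) and 4 (Crisp1), VEH_5w library 3 (Crisp1), CORT_15w libraries 1 and 5 (Prm2) and VEH_15w library 5 (Prm2 and Crisp1). The values of the genes whose calls they change are given with and without them. CORT_5w library 3 was the lowest of its group in 20 of the 30 collagen genes, and CORT_15w library 4 was the highest of its group in 13. In bulk tissue, fewer cells of a type and less RNA per cell cannot be told apart, and this holds for every difference below.

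The 30 genes fell into 7 fibrillar, 6 basement membrane, 5 beaded filament and 12 other collagens. Of the 30, all but Col9a3 reached the floor in 19 or 20 libraries. Col9a3, a chain of the cartilage collagen IX, was just inside the rule, with 5 libraries at the floor and a mean of 0.260 FPKM. Col13a1 and Col22a1 were just outside it, with 4 each and means of 0.177 and 0.343 FPKM. The other 12 symbols below the floor were Col2a1, Col6a4, Col7a1, Col9a1, Col9a2, Col11a1, Col11a2, Col17a1, Col19a1, Col24a1, Col25a1 and Col26a1, with means over the 20 libraries between 0.0288 FPKM for Col19a1 and 0.194 FPKM for Col11a2. By mean level the order was led by Col3a1 (275 FPKM), Col4a1 (218 FPKM), Col1a2 (130.4 FPKM), Col4a2 (107 FPKM) and Col6a1 (96.2 FPKM).

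Summed over the 30 genes, collagen transcripts were most abundant in active disease. The sum was 1854 ± 418 FPKM in CORT_5w and 1069 ± 105 FPKM in VEH_5w, and 1242 ± 354 FPKM in CORT_15w and 830.3 ± 84.0 FPKM in VEH_15w (SD, n = 5 each). The lowest CORT_5w library, library 3, had 1170 FPKM, and the highest VEH_5w library had 1181 FPKM, so the groups met at that 1 library. At 15 weeks the CORT_15w libraries ran from 853 to 1788 FPKM, and the VEH_15w libraries from 712 to 932 FPKM, with an overlap. Every family had the higher mean sum in corticosterone animals at both times. Abundant genes weigh most in such a sum. At 5 weeks the log2 fold change was above 0 in 7 of 7 fibrillar and 3 of 5 beaded filament genes. It was above 0 in 2 of 6 basement membrane genes and 5 of 12 other collagens. Fibrillar sums were 819 ± 201 FPKM in CORT_5w and 532 ± 95.0 FPKM in VEH_5w, basement membrane sums 528 ± 116 FPKM in CORT_5w and 292 ± 37.1 FPKM in VEH_5w, and beaded filament sums 333 ± 72.1 FPKM in CORT_5w and 167 ± 30.8 FPKM in VEH_5w. The other collagens gave 174 ± 45.6 FPKM in CORT_5w and 77.9 ± 9.38 FPKM in VEH_5w, and no CORT_5w library lay as low as the highest VEH_5w library. At 15 weeks the basement membrane sum was 302 ± 34.2 FPKM in CORT_15w and 258 ± 33.2 FPKM in VEH_15w, and the beaded filament sum was 224 ± 53.6 FPKM in CORT_15w and 131 ± 20.8 FPKM in VEH_15w. These sums are descriptions, with no test.

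**Figure D1:**
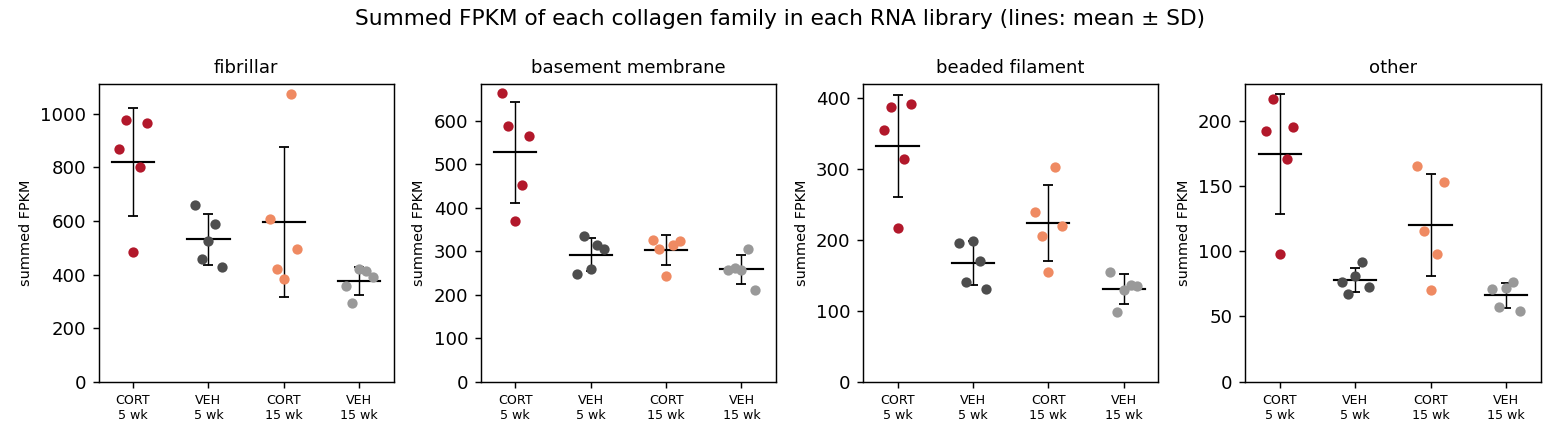
Summed FPKM of the genes of each collagen family (vertical axis, from 0) in each of the 20 RNA libraries (points), by group, with the mean and SD as lines. The basement membrane, beaded filament and other collagens of the 5 CORT_5w libraries lie above all VEH_5w libraries, while the fibrillar sums overlap.

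In active disease, 12 of the 30 collagen genes rose, 4 fell and 14 did not pass the test (limma on log2 of FPKM + 1 over 16581 genes, Benjamini-Hochberg adjusted p below 0.05). Over all genes tested 41.6% were called in this comparison, 21.2% higher and 20.3% lower, so that the 16 of 30 stood beside a tissue in which a large share of genes moved. The genes that rose were Col12a1, Col15a1, Col5a3, Col6a1, Col6a2, Col4a2, Col5a2, Col18a1, Col5a1, Col4a1, Col6a3 and Col16a1. The genes that fell were Col6a5, Col6a6, Col10a1 and Col4a6. The main chains of the fibre, Col1a1, Col1a2 and Col3a1, were not among them. The median log2 fold change over the 30 was 0.17, and over all genes tested it was 0.02. In 11 of the 30 the CORT_5w and VEH_5w libraries did not overlap, against 27.8% of all genes. With the 7 libraries left out, the same 12 genes rose and 1 of the 4, Col6a6, fell, beside 26.5% of all genes called.

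**Figure D2:**
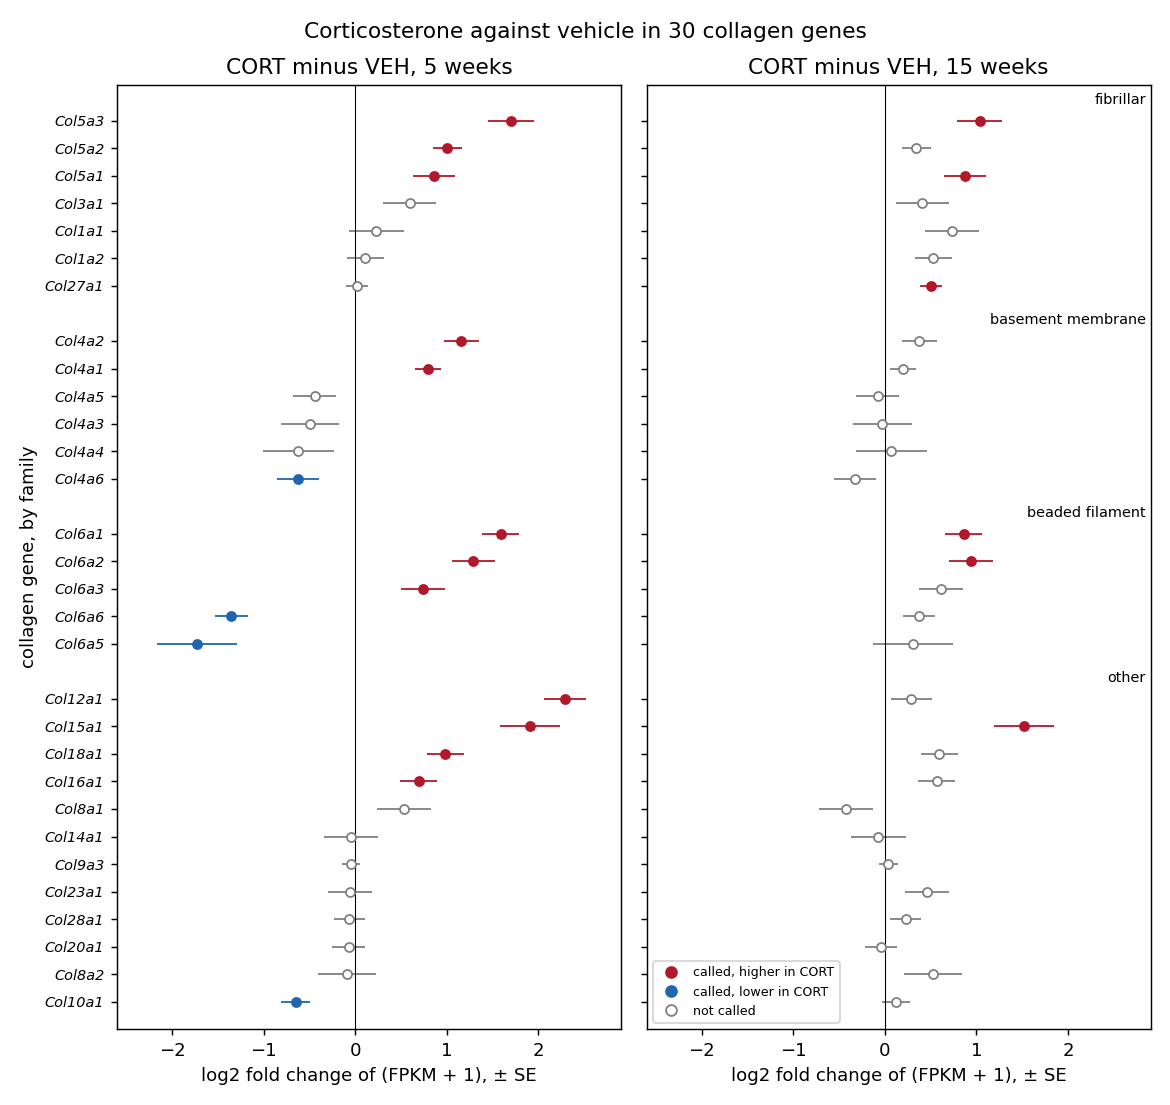
Log2 fold change of FPKM + 1, CORT minus VEH (horizontal axis, points with SE), for the 30 collagen genes (rows, by family) at 5 weeks on the left and 15 weeks on the right. Filled red points were called higher, filled blue points called lower and open points not called: 12, 4 and 14 genes at 5 weeks, and 6, 0 and 24 at 15 weeks.

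The collagen VI genes split in active disease: the 3 chains of the common microfilament rose and the 2 alternative chains fell. Col6a1 and Col6a2 encode the short chains that every collagen VI molecule holds, and Col6a3 the long chain that completes it. Col6a5 and Col6a6 encode long chains that are related to the Col6a3 chain and can take its place. All 5 genes passed the test at 5 weeks, beside 41.6% of all genes.

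Col6a1 stood at 181, 232, 129, 186 and 222 FPKM in CORT_5w libraries 1 to 5, against 65.7, 50.9, 73, 75.2 and 46.9 FPKM in VEH_5w libraries 1 to 5. The groups did not overlap (log2 change of 1.59 with SE 0.20 and adjusted p = 9.78e-06). Col6a2 stood at 112, 114, 54.1, 78.6 and 114 FPKM in CORT_5w libraries 1 to 5, against 35.1, 33.1, 40.5, 47 and 29.4 FPKM in VEH_5w libraries 1 to 5. Here too all CORT_5w libraries were above all VEH_5w libraries, library 3 being the lowest of its group (log2 change of 1.29 with SE 0.24 and adjusted p = 0.000301). Col6a3 averaged 34.4 ± 12.1 FPKM in CORT_5w and 19.0 ± 3.02 FPKM in VEH_5w, with CORT_5w library 3 at 14.5 FPKM, under every VEH_5w library (log2 change of 0.74 with SE 0.24 and adjusted p = 0.0169). This call was lost without CORT_5w library 5 (adjusted p = 0.0525) and under quantile normalization (0.59 on the log2 scale, adjusted p = 0.0536).

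Col6a5 stood at 17.3, 4.67, 17, 13.3 and 7.75 FPKM in CORT_5w libraries 1 to 5, against 70.3, 29.3, 61.6, 20.5 and 31.2 FPKM in VEH_5w libraries 1 to 5. Each CORT_5w library was below each VEH_5w library although the VEH_5w libraries themselves ranged from 20.5 to 70.3 FPKM (log2 change of -1.73 with SE 0.44 and adjusted p = 0.00377). The call was lost without the 7 libraries (-1.47 ± 0.54, adjusted p = 0.063). Col6a6 stood at 2.73, 1.07, 2.33, 1.67 and 1.09 FPKM in CORT_5w libraries 1 to 5, against 6.66, 5.04, 7.51, 5.11 and 5.48 FPKM in VEH_5w libraries 1 to 5. The groups were far apart, and the call also held without the 7 libraries (log2 change of -1.35 with SE 0.18 and adjusted p = 1.19e-05 with all libraries, -1.23 ± 0.23, adjusted p = 0.00288 without them). The ratio of Col6a5 to Col6a1 within a library was 0.0708 ± 0.0453 in CORT_5w and 0.685 ± 0.298 in VEH_5w (SD, n = 5 each). That of Col6a3 to Col6a1 was 0.177 ± 0.0442 in CORT_5w and 0.318 ± 0.0879 in VEH_5w.

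**Figure D3:**
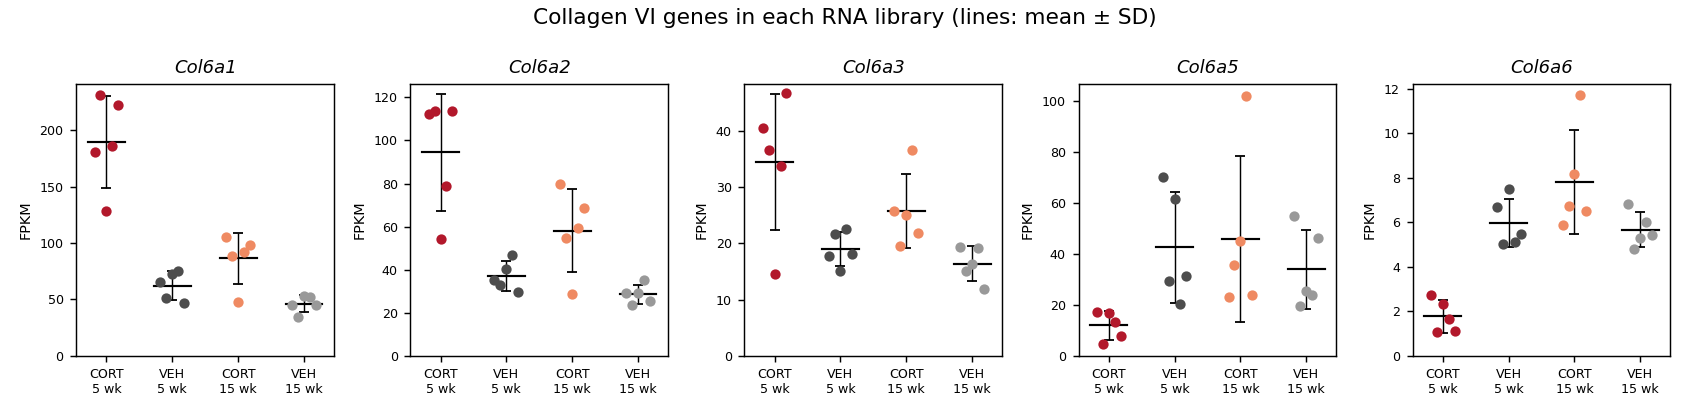
FPKM of the 5 collagen VI genes (one panel each, vertical axis from 0) in the 20 RNA libraries (points) by group, with mean and SD as lines. Col6a1 and Col6a2 of the CORT_5w libraries lie above all VEH_5w libraries, Col6a5 and Col6a6 lie below them, and the CORT_15w libraries overlap their controls for Col6a5 and Col6a6.

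The windows before the start sites of Col6a1 and Col6a2, which rose together and lie near each other on chromosome 10, are printed beside those of Col1a2 and Col3a1, which did not pass the test. They are the 250 bases before the outermost RefSeq start of each gene, from GRCm38.p6, whereas the authors' processing notes name build mm9. Capitals mark matches on either strand. The GC box was searched as GGGCGG. The CCAAT box was searched by its name's letters, and the TATA box as TATAAA. A single arm of the glucocorticoid receptor's site, AGAACA, was searched in the same way.
Col6a1 (chr10:76726045-76726294, minus strand): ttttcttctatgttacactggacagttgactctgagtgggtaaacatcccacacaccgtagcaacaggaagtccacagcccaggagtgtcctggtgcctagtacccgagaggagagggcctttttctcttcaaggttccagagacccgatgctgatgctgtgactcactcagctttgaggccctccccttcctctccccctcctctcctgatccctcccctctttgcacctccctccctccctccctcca
Col6a2 (chr10:76623631-76623880, minus strand): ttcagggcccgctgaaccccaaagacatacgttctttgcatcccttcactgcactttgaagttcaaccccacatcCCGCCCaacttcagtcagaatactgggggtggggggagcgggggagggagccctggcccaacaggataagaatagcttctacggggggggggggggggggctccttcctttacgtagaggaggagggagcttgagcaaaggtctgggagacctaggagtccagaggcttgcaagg
Col1a2 (chr6:4505368-4505617, plus strand): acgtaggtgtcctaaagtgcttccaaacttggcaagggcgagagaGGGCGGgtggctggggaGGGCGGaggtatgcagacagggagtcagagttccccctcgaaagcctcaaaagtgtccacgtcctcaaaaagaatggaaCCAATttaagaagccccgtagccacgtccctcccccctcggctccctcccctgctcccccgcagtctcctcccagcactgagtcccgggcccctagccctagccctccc
Col3a1 (chr1:45311288-45311537, plus strand): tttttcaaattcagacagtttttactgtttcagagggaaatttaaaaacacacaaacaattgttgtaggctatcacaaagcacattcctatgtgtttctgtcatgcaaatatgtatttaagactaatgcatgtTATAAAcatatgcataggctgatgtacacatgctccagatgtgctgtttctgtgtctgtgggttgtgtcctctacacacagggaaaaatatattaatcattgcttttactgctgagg
The Col6a1 window held none of the 4 motifs, and the Col6a2 window held 1 GC box. The Col1a2 window held 2 GC boxes and 1 CCAAT box, and the Col3a1 window 1 TATA box. RefSeq windows were given for 24 of the 30 genes, 2 of which had 2 windows, and the 250 bases before each start were searched. Of these 26 windows, 16 held a GC box, 7 a CCAAT box, 2 a TATA box and 1 (Col20a1) the single arm, while 32.7%, 33.8%, 12.4% and 16.1% of the 32851 windows of all genes held the same motifs. The full site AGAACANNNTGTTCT, whose ends are each such an arm, was in none of the 26 and in 0.00913% of all windows. A match is a string of letters, not a bound site, and no match speaks only of these 250 bases.

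Among the fibrillar genes, type V collagen rose in active disease and types I and III did not pass the test. All 3 genes of type V were called, and 0 of the other 4, a share of the 7 near the 41.6% of all genes called. The 7 genes had a median log2 fold change of 0.59, against 0.02 over all genes tested.

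Col5a3, a chain of type V collagen that is found in only some tissues, stood at 119, 119, 57.3, 78.9 and 107 FPKM in CORT_5w libraries 1 to 5, against 23.6, 29, 28.9, 31 and 27.4 FPKM in VEH_5w libraries 1 to 5. The groups did not overlap, and the controls lay close together (log2 change of 1.70 with SE 0.25 and adjusted p = 3.31e-05). Col5a2 averaged 67.8 ± 16.7 FPKM in CORT_5w and 32.4 ± 2.28 FPKM in VEH_5w, with no overlap (log2 change of 1.01 with SE 0.16 and adjusted p = 7.07e-05). Col5a1, the chain common to all type V molecules, averaged 36.1 ± 12.2 FPKM in CORT_5w and 18.5 ± 2.50 FPKM in VEH_5w (log2 change of 0.86 with SE 0.23 and adjusted p = 0.00555). Its CORT_5w library 3 had 17.4 FPKM, within the control range. The ratio of Col5a3 to Col5a1 was 2.74 ± 0.322 in CORT_5w and 1.52 ± 0.0985 in VEH_5w, and the lowest CORT_5w ratio, 2.49, was above the highest VEH_5w ratio, 1.65.

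Col3a1, the most abundant collagen transcript and the sole chain of type III collagen, stood at 378, 508, 236, 431 and 484 FPKM in CORT_5w libraries 1 to 5, against 380.2, 215, 262, 276 and 203 FPKM in VEH_5w libraries 1 to 5. The spread within both groups was wide and they overlapped (log2 change of 0.59 with SE 0.29 and adjusted p = 0.115, 95% interval -0.02 to 1.21). In the authors' deposited table the same gene was called, at a log2 fold change of 0.60 and an adjusted p of 0.0201. Col1a2, a chain of type I collagen, stood at 149, 139, 91.1, 129 and 182 FPKM in CORT_5w libraries 1 to 5, against 145, 109, 127, 145 and 104 FPKM in VEH_5w libraries 1 to 5. The libraries of the groups were interleaved (log2 change of 0.11 with SE 0.20 and adjusted p = 0.696, 95% interval -0.31 to 0.53). Its partner chain Col1a1 averaged 73.1 ± 27.9 FPKM in CORT_5w and 59.4 ± 11.7 FPKM in VEH_5w (log2 change of 0.23 with SE 0.30 and adjusted p = 0.571, 95% interval -0.39 to 0.85). The intervals still allow a rise in either type I gene, or a small fall. Col27a1, a short fibrillar collagen best known from cartilage, stood at 0.502 ± 0.205 FPKM in CORT_5w and 0.480 ± 0.184 FPKM in VEH_5w (95% interval -0.24 to 0.28). Type I transcripts were a smaller part of the collagen sum in active disease: Col1a2 made up 7.48 ± 0.791% of it in CORT_5w and 11.7 ± 0.702% in VEH_5w (SD, n = 5 each).

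**Figure D4:**
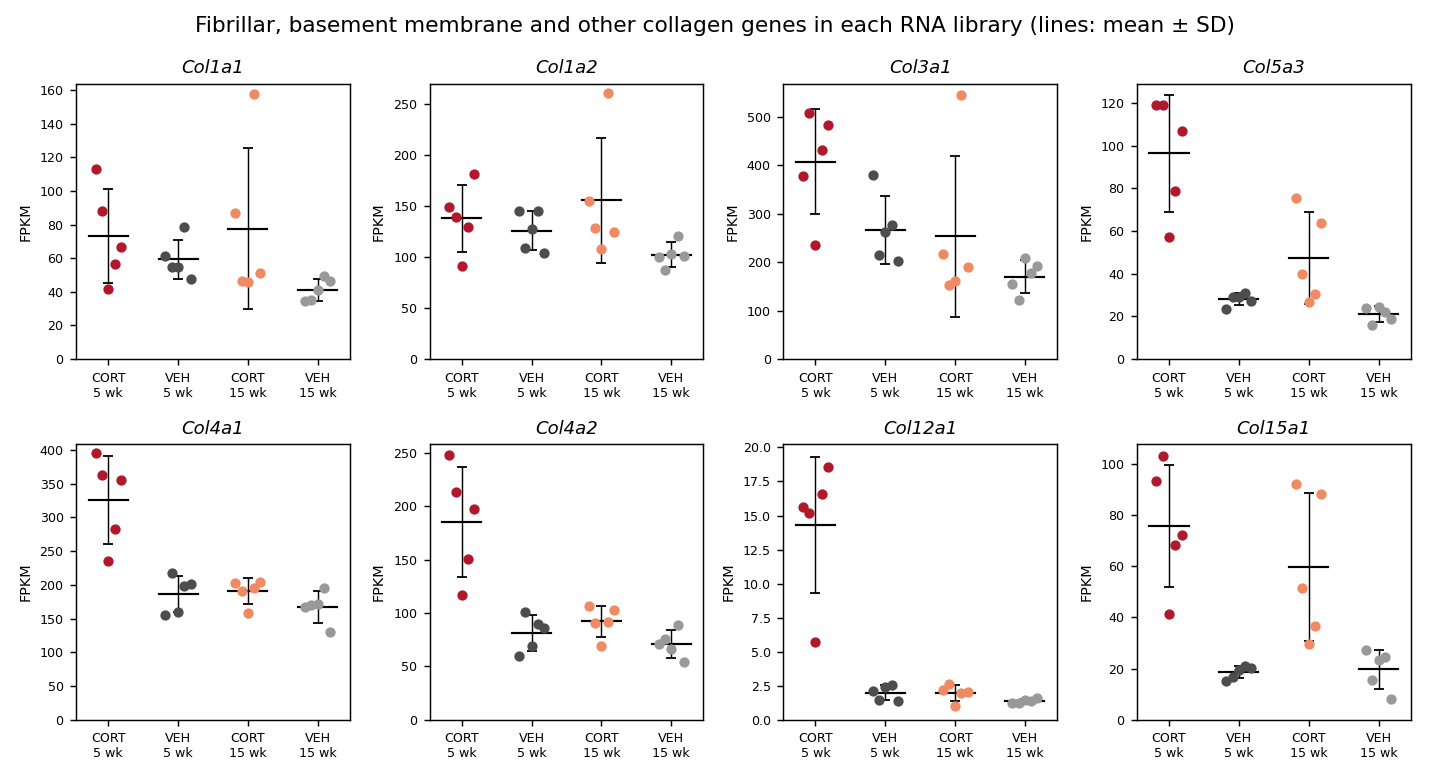
FPKM of 8 collagen genes (one panel each, vertical axis from 0) in the 20 RNA libraries (points) by group, with mean and SD as lines. Col5a3, Col4a1, Col4a2, Col12a1 and Col15a1 of the CORT_5w libraries lie above all VEH_5w libraries, whereas Col1a1, Col1a2 and Col3a1 overlap. CORT_15w library 4 is far above the rest of its group for Col1a1, Col1a2 and Col3a1.

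Among the basement membrane genes, the common pair Col4a1 and Col4a2 rose in active disease, Col4a6 fell, and Col4a3, Col4a4 and Col4a5 did not pass the test. Over all genes tested 41.6% were called in this comparison. Col4a1 and Col4a2 form the type IV molecule of nearly all basement membranes. The other chains occur in special membranes, such as that of the kidney filter, and Col4a5 and Col4a6 also in smooth muscle.

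Col4a1 stood at 395, 363, 236, 282 and 355 FPKM in CORT_5w libraries 1 to 5, against 156, 217, 159.9, 198 and 202 FPKM in VEH_5w libraries 1 to 5. Every CORT_5w library was above every VEH_5w library (log2 change of 0.79 with SE 0.14 and adjusted p = 0.000245). Col4a2 stood at 248, 213, 117, 151 and 197 FPKM in CORT_5w libraries 1 to 5, against 59.3, 101, 69.2, 89.5 and 86.3 FPKM in VEH_5w libraries 1 to 5. It too showed no overlap, with library 3 again lowest among the CORT_5w libraries (log2 change of 1.16 with SE 0.19 and adjusted p = 0.000109). The ratio of Col4a2 to Col4a1 was 0.560 ± 0.0507 in CORT_5w and 0.432 ± 0.0320 in VEH_5w. The pair lies head to head on chromosome 8, and the annotated genes overlap at their starts. Since the sources used here do not state whether counting used the strand, reads from that overlap may be split between them either way. The same holds for the pair Col4a3 and Col4a4, and for Col10a1 and Col9a3, which each overlap a gene that is not a collagen (Nt5dc1 and Tcfl5).

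Col4a6 averaged 3.21 ± 1.37 FPKM in CORT_5w and 5.60 ± 2.33 FPKM in VEH_5w (log2 change of -0.62 with SE 0.23 and adjusted p = 0.0356). The groups overlapped, and the call was lost without any 1 of 6 libraries (CORT_5w 1, 2, 3 or 5, VEH_5w 1 or 3), without the 7 libraries (-0.78 ± 0.29, adjusted p = 0.063), with no filter on low values and in the fit of the 2 groups alone. Col4a5, its neighbour on the X chromosome, averaged 10.1 ± 1.56 FPKM in CORT_5w and 14.6 ± 5.11 FPKM in VEH_5w (log2 change of -0.44 with SE 0.23 and adjusted p = 0.143), and was called lower in the authors' deposited table. Col4a3 and Col4a4 varied more within groups than between them. Col4a4 ran from 0.220 to 4.55 FPKM in CORT_5w and from 1.65 to 5.65 FPKM in VEH_5w, and Col4a3 from 0.236 to 2.65 FPKM in CORT_5w and from 1.07 to 3.60 FPKM in VEH_5w. Their log2 fold changes were -0.62 ± 0.39 and -0.49 ± 0.32.

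Endothelial markers, from cells that make type IV collagen, moved the other way. All 7 of them (Pecam1, Cdh5, Tek, Kdr, Vwf, Emcn and Tie1) fell at 5 weeks, with a summed level between 64.9 and 99.6 FPKM in CORT_5w and between 148 and 267 FPKM in VEH_5w. Of the 7 markers, 6 also fell without the 7 libraries. Among the partners of type IV collagen in the basement membrane, 3 of 10 rose, 2 fell and 5 did not pass the test, beside 41.6% of all genes called (21.2% higher and 20.3% lower). Pxdn, the peroxidase that cross-links type IV collagen, rose by 0.95 ± 0.20 (adjusted p = 0.000909) on the log2 scale, and the linker proteins Nid1 and Nid2 by 0.75 ± 0.18 (adjusted p = 0.00225) and 0.43 ± 0.16 (adjusted p = 0.0391). The laminin chains Lamb1 and Lama2 were lower, with log2 fold changes of -0.41 ± 0.10 (adjusted p = 0.003) and -0.53 ± 0.14 (adjusted p = 0.00655). Both of these laminin calls were lost without the 7 libraries.

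Of the 12 other collagens, 4 rose, 1 fell and 7 did not pass the test, a share of calls near the 41.6% of all genes. The rises were the multiplexins of the basement membrane edge, Col15a1 and Col18a1, and the fibril-associated Col12a1 and Col16a1. Col12a1, which bridges fibrils and is known for its rise in tissue under load or repair, had the highest log2 fold change of the 30.

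Col12a1 stood at 15.6, 15.2, 5.72, 16.6 and 18.5 FPKM in CORT_5w libraries 1 to 5, against 2.14, 1.44, 2.43, 2.58 and 1.36 FPKM in VEH_5w libraries 1 to 5. Among the CORT_5w libraries only library 3 stood apart, yet it was still above each control (log2 change of 2.29 with SE 0.23 and adjusted p = 6.83e-07). Col15a1 stood at 93.2, 103, 41.5, 68.1 and 72.3 FPKM in CORT_5w libraries 1 to 5, against 15.3, 16.8, 19.4, 21.2 and 20.4 FPKM in VEH_5w libraries 1 to 5. The controls lay close together and the groups were far apart (log2 change of 1.91 with SE 0.33 and adjusted p = 0.000167). Col18a1, whose end fragment is known as endostatin, stood at 44.8, 55.9, 26.2, 36.1 and 41.2 FPKM in CORT_5w libraries 1 to 5, against 17.7, 17.8, 22.8, 20.9 and 19 FPKM in VEH_5w libraries 1 to 5. There was no overlap (log2 change of 0.98 with SE 0.20 and adjusted p = 0.00082). Col16a1 averaged 8.01 ± 1.40 FPKM in CORT_5w and 4.63 ± 1.24 FPKM in VEH_5w (log2 change of 0.69 with SE 0.21 and adjusted p = 0.0112).

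Col10a1, a short network collagen best known from growth plate cartilage, stood at 1.25, 0.831, 1.05, 1 and 1.09 FPKM in CORT_5w libraries 1 to 5, against 1.2, 2.84, 1.67, 2.86 and 2.84 FPKM in VEH_5w libraries 1 to 5. The CORT_5w libraries were all low, and VEH_5w library 1 lay among them (log2 change of -0.65 with SE 0.16 and adjusted p = 0.00267). This call too was lost without the 7 libraries (-0.63 ± 0.24, adjusted p = 0.0766). The 7 that did not pass were Col8a1, Col8a2, Col9a3, Col14a1, Col20a1, Col23a1 and Col28a1. Col8a1, a network collagen of vessels and injured tissue, averaged 6.70 ± 3.28 FPKM in CORT_5w and 4 ± 1.61 FPKM in VEH_5w (0.53 ± 0.30 on the log2 scale, 95% interval -0.09 to 1.15). Col14a1, a fibril-associated collagen of fibroblasts, averaged 21.2 ± 11.2 FPKM in CORT_5w and 19.9 ± 4.45 FPKM in VEH_5w (-0.04 ± 0.30, 95% interval -0.67 to 0.58). The other 5 had log2 fold changes between -0.09 (Col8a2) and -0.05 (Col9a3), and Col9a3 rested on 6 to 24 reads per library at 5 weeks.

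The enzymes and chaperones that make collagen mostly rose with it in active disease. Of the 31 genes listed for biosynthesis and processing, 29 were tested, 16 rose, 4 fell and 9 did not pass the test, beside 21.2% of all genes higher and 20.3% lower, with a median log2 fold change of 0.51. The 3 rises of smallest adjusted p were Serpinh1 (the collagen chaperone HSP47), with a log2 fold change of 1.96 ± 0.15 (adjusted p = 4.97e-08), Plod3 (a lysyl hydroxylase and glycosyltransferase), with 1.21 ± 0.12 (adjusted p = 9.90e-07), and Fkbp14 (a prolyl isomerase of the endoplasmic reticulum), with 0.87 ± 0.10 (adjusted p = 2.84e-06). The falls were led by P3h2, a prolyl 3-hydroxylase that acts on type IV collagen, with -0.81 ± 0.10 (adjusted p = 5.74e-06), Tll1 (a procollagen C-proteinase), with -0.59 ± 0.11 (adjusted p = 0.000477), and Colgalt2 (a collagen galactosyltransferase), with -0.37 ± 0.09 (adjusted p = 0.003). The prolyl 4-hydroxylase subunits P4ha1, P4ha2 and P4hb, the lysyl hydroxylases Plod1 and Plod2 and the cross-linking oxidase Lox were among the rises. The summed level of the list was 718 to 1141 FPKM in CORT_5w and 437 to 558 FPKM in VEH_5w. Without the 7 libraries 15 rose and 3 fell.

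Of 9 tested genes for receptors and uptake, 2 rose and 2 fell, a share of calls near the 41.6% of all genes. Mrc2, the receptor that takes up collagen for breakdown, had a log2 fold change of 1.92 ± 0.21 (adjusted p = 2.22e-06), and Itgb1, the shared subunit of collagen-binding integrins, 0.75 ± 0.12 (adjusted p = 0.000101). Itga11 and Ddr2, receptors for fibrillar collagen, were lower, at -0.72 ± 0.15 (adjusted p = 0.000931) and -0.48 ± 0.16 (adjusted p = 0.0217), and neither fall was called without the 7 libraries. Of 6 tested genes for breakdown, Mmp13 and Ctsk rose and Mmp9 and Mmp14 fell, beside the same 41.6%. Mmp9 (a gelatinase) had a log2 fold change of -1.78 ± 0.17 (adjusted p = 3.74e-07) and Mmp14 (a collagenase of the cell surface) -0.83 ± 0.17 (adjusted p = 0.000915). Mmp13 (a collagenase) had 0.30 ± 0.09 (adjusted p = 0.0121) and Ctsk (cathepsin K) 1.08 ± 0.38 (adjusted p = 0.0298), and without the 7 libraries 2 genes of the list fell and 0 rose. Of 7 growth factors that induce collagen, Tgfb3 and Pdgfa rose, with log2 fold changes of 0.90 ± 0.15 (adjusted p = 0.000111) and 0.47 ± 0.14 (adjusted p = 0.0114), Pdgfb fell, with -0.78 ± 0.27 (adjusted p = 0.0272), a fall not called without the 7 libraries, and Tgfb1, Tgfb2, Ctgf and Inhba did not pass the test.

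Markers of the cells that could carry these transcripts moved unevenly, beside 41.6% of all genes called at 5 weeks (21.2% higher and 20.3% lower). In short lists, counts near that share say little about the cells. Of 10 fibroblast and progenitor markers, Dpt, Mfap5 and Fbn1 rose, Pdgfra and Dcn fell and 5 did not pass, with a summed level of 1163 to 1706 FPKM in CORT_5w and 1252 to 2666 FPKM in VEH_5w. Of 6 macrophage markers, Adgre1, Cd68, Trem2 and Itgax rose, with a summed level of 203 to 580.3 FPKM in CORT_5w and 139 to 236 FPKM in VEH_5w. Of 8 smooth muscle and pericyte markers, 2 rose and 3 fell, with sums of 133 to 950.4 FPKM in CORT_5w and 123 to 273 FPKM in VEH_5w, and 0 of 8 mesothelial markers were called, with sums of 106 to 180.4 FPKM in CORT_5w and 55.7 to 222 FPKM in VEH_5w. Of the cartilage markers, Acan and Matn3 were below the floor for testing, and the list summed to 0.454 to 2.65 FPKM in CORT_5w and 0.734 to 1.93 FPKM in VEH_5w. Of 2 tested Schwann cell markers S100b rose (list sums of 1.58 to 6.39 FPKM in CORT_5w and 1.76 to 2.75 FPKM in VEH_5w), and of 2 tested skeletal muscle markers Acta1 rose (35.1 to 66.0 FPKM in CORT_5w and 8.74 to 34.4 FPKM in VEH_5w). Of 4 liver markers Alb and Ttr rose (26.1 to 2588 FPKM in CORT_5w and 13.5 to 38.6 FPKM in VEH_5w), and 0 of 4 tested epididymis and testis markers were called (0.792 to 1431 FPKM in CORT_5w and 0.350 to 650.7 FPKM in VEH_5w). Of the adipocyte list Plin1 rose and 5 did not pass. The part of these cells in the collagen differences was not tested.

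After recovery, 6 of the 30 collagen genes were higher in corticosterone animals than in their controls, 0 were lower and 24 did not pass the test, while 9.84% of all genes were called, 3.58% higher. The 6 were Col15a1, Col5a3, Col6a2, Col5a1, Col6a1 and Col27a1. All but Col27a1 had also risen at 5 weeks. In 4 of the 30 the CORT_15w and VEH_15w libraries did not overlap, against 7.71% of all genes. The median log2 fold change over the 30 was 0.37, against 0.01 over all genes tested, and 24 of the 30 were above 0. Over all genes the split between 594 higher and 1037 lower calls turned to 1036 higher and 597 lower when values were scaled by total reads, and the collagen calls were then 7 higher and 0 lower.

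These calls changed with the libraries used, and so did the calls over all genes. With the 7 libraries that hold transcripts of other organs left out, 0 of the 30 were called, and 0.838% of all genes. Without CORT_15w library 1 alone, 3 were called, and Col27a1, Col5a1 and Col6a2 were lost. Over all genes 257 were then higher and 422 lower, against 594 and 1037 with all libraries. Col5a1 was also lost without CORT_15w library 4 or 5 or VEH_15w library 2 or 3, and Col6a2 without VEH_15w library 2. By the authors' deposited table, Col8a1 was called lower and 11 genes higher, beside 13.6% of all genes called there (6.03% higher and 7.52% lower). The 11 held the 6 above and Col18a1, Col1a1, Col1a2, Col23a1 and Col6a3.

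Col15a1 stood at 92.1, 51.4, 29.6, 36.7 and 88.3 FPKM in CORT_15w libraries 1 to 5, against 27.2, 15.4, 23.2, 24.4 and 8.21 FPKM in VEH_15w libraries 1 to 5. CORT_15w libraries 1 and 5, which hold the testis transcript Prm2 at 309 and 129 FPKM, were the highest, and the other 3 were still above every control (log2 change of 1.52 with SE 0.33 and adjusted p = 0.00926 with all libraries, and 0.77 ± 0.21, adjusted p = 0.104 without the 7). Col5a3 stood at 75.6, 39.8, 26.7, 30.3 and 63.8 FPKM in CORT_15w libraries 1 to 5, against 24.1, 16, 24.4, 22 and 18.5 FPKM in VEH_15w libraries 1 to 5. The same 2 libraries were highest, and the groups did not overlap (log2 change of 1.03 with SE 0.25 and adjusted p = 0.0147, and 0.56 ± 0.16, adjusted p = 0.119 without the 7). The call was also lost in the fit of the 2 groups alone (adjusted p = 0.0547). Col18a1 stood at 38.2, 25.7, 17, 19.4 and 34.6 FPKM in CORT_15w libraries 1 to 5, against 15.3, 17.1, 16.2, 21.8 and 14.1 FPKM in VEH_15w libraries 1 to 5, so its difference, 0.59 ± 0.20 on the log2 scale with an adjusted p of 0.0715, rested on CORT_15w libraries 1 and 5 to a large part. It was 0.21 ± 0.14, adjusted p = 0.452 without the 7 libraries. With all libraries it was called when scaled by total reads (0.701, adjusted p = 0.0365) and under quantile normalization (0.703, adjusted p = 0.0411).

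Col6a1 stood at 105, 88.8, 48.1, 92.3 and 97.9 FPKM in CORT_15w libraries 1 to 5, against 44.9, 34.4, 53.4, 52.5 and 45.4 FPKM in VEH_15w libraries 1 to 5. Only CORT_15w library 3 lay within the control range (log2 change of 0.86 with SE 0.20 and adjusted p = 0.0142). Col6a2 stood at 79.7, 54.5, 28.5, 59.5 and 68.7 FPKM in CORT_15w libraries 1 to 5, against 29, 23.7, 29.3, 35.1 and 25.5 FPKM in VEH_15w libraries 1 to 5, with library 3 again among the controls (log2 change of 0.94 with SE 0.24 and adjusted p = 0.0189). Without the 7 libraries these were 0.67 ± 0.24, adjusted p = 0.175, and 0.62 ± 0.23, adjusted p = 0.186. Col6a3 was at 19.6 to 36.6 FPKM in CORT_15w and 11.8 to 19.4 FPKM in VEH_15w, without overlap, and did not pass the test (log2 change of 0.61 with SE 0.24 and adjusted p = 0.109). Col6a5 stood at 23.1, 35.5, 45.1, 102 and 24 FPKM in CORT_15w libraries 1 to 5, against 54.8, 19.6, 25.4, 23.9 and 46.3 FPKM in VEH_15w libraries 1 to 5, with library 4 of CORT_15w far above the others (log2 change of 0.31 with SE 0.44 and adjusted p = 0.723, 95% interval -0.60 to 1.22). Col6a6 stood at 5.89, 6.72, 8.17, 11.7 and 6.51 FPKM in CORT_15w libraries 1 to 5, against 6.83, 4.82, 5.3, 5.99 and 5.41 FPKM in VEH_15w libraries 1 to 5. Its groups overlapped (log2 change of 0.37 with SE 0.18 and adjusted p = 0.208).

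**Figure D5:**
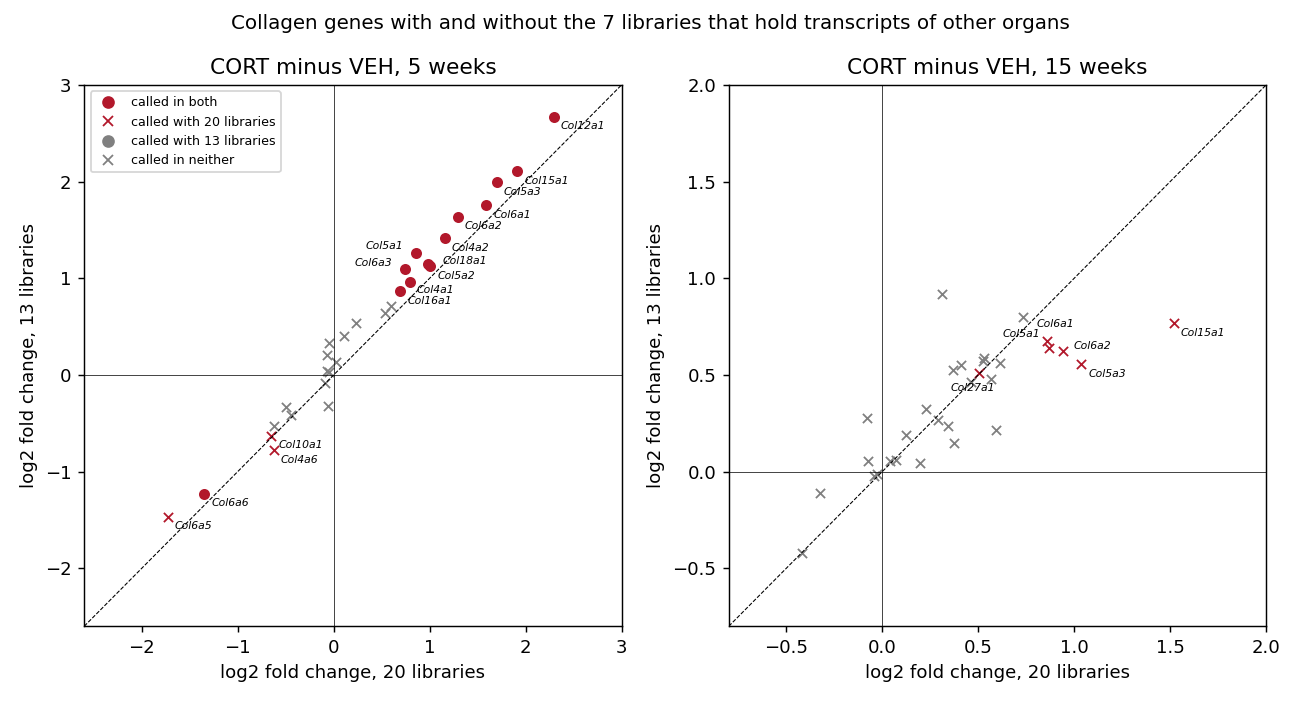
Log2 fold change of each of the 30 collagen genes, CORT minus VEH, with all 20 libraries (horizontal axis) and with the 13 libraries left when those with liver, testis or epididymis transcripts are left out (vertical axis), at 5 weeks (left) and 15 weeks (right), with a dashed line of equality. At 5 weeks 12 rises and the fall of Col6a6 were called both ways, and at 15 weeks none of the 6 called genes was called with 13 libraries.

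The fibre chains spread widely among the recovered animals. Col3a1 stood at 218, 152, 161, 546 and 189 FPKM in CORT_15w libraries 1 to 5, against 155, 121, 208, 177 and 191 FPKM in VEH_15w libraries 1 to 5, and Col1a2 at 155, 129, 108, 261 and 125 FPKM in CORT_15w libraries 1 to 5, against 100.1, 86.9, 103, 121 and 101 FPKM in VEH_15w libraries 1 to 5. CORT_15w library 4 was the highest in both, and for Col3a1 the other 4 were close to the controls. The log2 fold changes were 0.41 ± 0.29 for Col3a1, 0.53 ± 0.20 for Col1a2 and 0.73 ± 0.30 for Col1a1, with adjusted p of 0.424, 0.103 and 0.127. Col5a1 averaged 28 ± 7.91 FPKM in CORT_15w and 14.5 ± 2.52 FPKM in VEH_15w (log2 change of 0.87 with SE 0.23 and adjusted p = 0.023, and 0.64 ± 0.20, adjusted p = 0.13 without the 7), and Col5a2 33.1 ± 6.88 FPKM in CORT_15w and 25.5 ± 2.48 FPKM in VEH_15w (log2 change of 0.34 with SE 0.16 and adjusted p = 0.188). Col27a1 was low but apart: its CORT_15w libraries ran from 0.764 to 1.42 FPKM and its VEH_15w libraries from 0.343 to 0.715 FPKM (log2 change of 0.51 with SE 0.12 and adjusted p = 0.0152, and 0.51 ± 0.15, adjusted p = 0.117 without the 7). Its call was also lost under quantile normalization (0.37 on the log2 scale, adjusted p = 0.0573).

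None of the 6 basement membrane genes was called at 15 weeks, beside 9.84% of all genes. Col4a1 stood at 203, 191, 158, 196 and 205 FPKM in CORT_15w libraries 1 to 5, against 167, 171, 172, 195 and 129.9 FPKM in VEH_15w libraries 1 to 5. Col4a2 stood at 107, 90.7, 69.4, 91.6 and 103 FPKM in CORT_15w libraries 1 to 5, against 71.1, 75.3, 66, 89.1 and 53.9 FPKM in VEH_15w libraries 1 to 5. The groups overlapped for both genes, with a 95% interval -0.10 to 0.50 for Col4a1 and a 95% interval -0.03 to 0.78 for Col4a2 on the log2 scale. Col4a3, Col4a4, Col4a5 and Col4a6 had log2 fold changes between -0.33 (Col4a6) and 0.07 (Col4a4). Of the other collagens, Col12a1 stood at 2.16, 2.62, 1.05, 1.96 and 2.01 FPKM in CORT_15w libraries 1 to 5, against 1.25, 1.2, 1.42, 1.42 and 1.63 FPKM in VEH_15w libraries 1 to 5, close to its controls (log2 change of 0.29 with SE 0.23 and adjusted p = 0.475). Col10a1 stood at 1.74, 1.56, 3.02, 2.12 and 2.06 FPKM in CORT_15w libraries 1 to 5, against 1.91, 2.38, 1.53, 1.44 and 1.89 FPKM in VEH_15w libraries 1 to 5, with the groups interleaved (log2 change of 0.12 with SE 0.16 and adjusted p = 0.686). Col16a1, Col8a2, Col23a1, Col28a1, Col9a3, Col20a1, Col14a1 and Col8a1 had log2 fold changes of 0.56, 0.53, 0.46, 0.23, 0.04, -0.04, -0.07 and -0.42, and did not pass the test.

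Over all genes tested 9.84% were called at 15 weeks, 3.58% higher, so a short list with 0 calls says little. Of the biosynthesis list, 2 of 29 rose at 15 weeks and 0 fell. Serpinh1 had a log2 fold change of 0.97 ± 0.15 (adjusted p = 0.00155) and Fkbp14 of 0.39 ± 0.10 (adjusted p = 0.0193). Without the 7 libraries 1 gene of the list rose, beside 0.838% of all genes called. In the receptor, breakdown and basement membrane partner lists 0 of 9, 0 of 6 and 0 of 10 were called, and of the growth factors Pdgfa rose, by 0.47 ± 0.14 (adjusted p = 0.0414). The endothelial markers summed to 150.2 to 181 FPKM in CORT_15w and 122 to 247 FPKM in VEH_15w, with 0 of 7 called. Of the macrophage markers Itgax rose, with list sums of 133 to 339 FPKM in CORT_15w and 114 to 175 FPKM in VEH_15w. Of the fibroblast list Dpp4 fell, with sums of 879.7 to 1875 FPKM in CORT_15w and 1034 to 1760.0 FPKM in VEH_15w. Plin1 of the adipocyte list, and Notch3 and Cspg4 of the smooth muscle and pericyte list, were called higher. In the remaining marker lists 0 genes were called at 15 weeks.

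The effect of corticosterone differed between the times in 4 of the 30 genes, tested as a difference of the 2 effects, while 15.5% of all genes were called in that test, 6.12% higher and 9.38% lower (1014 and 1556 genes, or 1753 and 917 when scaled by total reads). Col6a6, Col6a5 and Col10a1 had the higher difference at 15 weeks, being low in active disease and not after recovery. The difference (15 weeks minus 5 weeks) was 1.72 ± 0.25 for Col6a6, 2.04 ± 0.62 for Col6a5 and 0.77 ± 0.22 for Col10a1 on the log2 scale, with adjusted p of 0.000442, 0.0328 and 0.0255. Col12a1 had the lower difference (-2.0 ± 0.32, adjusted p = 0.000818), with a rise at 5 weeks and no call at 15 weeks. Col4a1, Col4a2 and Col5a2, which were called at 5 weeks and not at 15 weeks, had differences of -0.59 ± 0.20, -0.78 ± 0.27 and -0.66 ± 0.22, with adjusted p of 0.0528, 0.0562 and 0.0517. Without the 7 libraries the differences of Col4a1 (-0.92 ± 0.20, adjusted p = 0.0273) and Col4a2 (-1.26 ± 0.27, adjusted p = 0.0256) were called and that of Col5a2 was not (-0.89 ± 0.25, adjusted p = 0.0696). Col5a2 was called with a floor of 0.5 FPKM (adjusted p = 0.0492). For Col15a1 the difference was -0.39 ± 0.47 (95% interval -1.37 to 0.58) with all libraries and -1.34 ± 0.32, adjusted p = 0.0389 without the 7, where it was called. For Col5a3 it was -0.67 ± 0.35 (adjusted p = 0.207) with all libraries and -1.44 ± 0.25, adjusted p = 0.0103 without the 7, and for Col18a1 -0.39 ± 0.29 (adjusted p = 0.382) and -0.94 ± 0.21, adjusted p = 0.033. For Col5a1 it was 0.01 ± 0.32 (95% interval -0.67 to 0.69), and -0.62 ± 0.30, adjusted p = 0.265 without the 7.

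This count changed in both directions with the libraries used. It was 7 (1 higher and 6 lower) without the 7 libraries, where 4.29% of all genes were called (1.22% higher and 3.07% lower). Without CORT_5w library 3 it was 9, beside 830 of all genes higher and 1589 lower. It was 2 without CORT_5w library 2, beside 651 and 1061, and 2 without VEH_15w library 3, beside 645 and 1105. With all libraries the counts over all genes were 1014 and 1556. The calls of Col6a5 and Col10a1 were each lost without one or another single library, at adjusted p of up to 0.0653. Both were also lost without the 7 libraries (2.39 ± 0.72, adjusted p = 0.0819 for Col6a5, and 0.81 ± 0.32, adjusted p = 0.178 for Col10a1), and that of Col10a1 under quantile normalization (0.64, adjusted p = 0.074). Those of Col6a6 (1.76 ± 0.31, adjusted p = 0.012) and Col12a1 (-2.40 ± 0.29, adjusted p = 0.0018) were called without the 7 libraries too, and were not lost without any single one of the 20.

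Set directly against active animals, recovered animals had 10 collagen genes lower, 4 higher and 16 not called, beside 39.8% of all genes called (18.2% higher and 21.6% lower). With the 7 libraries left out, 12 were lower and 2 higher, beside 9.61% and 6.6% of all genes. The lower ones were Col12a1, Col6a1, Col5a3, Col5a2, Col8a1, Col4a2, Col3a1, Col4a1, Col6a2 and Col18a1, with log2 differences (15 weeks minus 5 weeks) between -2.31 ± 0.23 for Col12a1 and -0.60 ± 0.20 for Col18a1. The higher ones were Col6a5, Col6a6, Col10a1 and Col27a1, with 1.76 ± 0.44, 1.67 ± 0.18, 0.59 ± 0.16 and 0.48 ± 0.12. With quantile normalization the split was 4 higher and 5 lower, beside 2683 higher and 2937 lower of all 16581 genes. The calls lost there were those of Col3a1, Col18a1, Col6a2, Col4a1 and Col4a2. The calls of Col3a1, Col18a1 and Col6a2 were each also lost without one or another single CORT library, at adjusted p of up to 0.0887, in the fit of the 2 groups alone, at up to 0.0889, and when scaled by total reads, at up to 0.0785. That of Col3a1 was lost with no filter on low values as well. Without the 7 libraries Col10a1 (0.55 ± 0.26, adjusted p = 0.161), Col27a1 (0.36 ± 0.18, adjusted p = 0.183) and Col3a1 (-0.85 ± 0.47, adjusted p = 0.239) were not called, while Col15a1 (-1.08 ± 0.25, adjusted p = 0.0146), Col5a1 (-0.88 ± 0.24, adjusted p = 0.0274) and Col6a3 (-0.71 ± 0.21, adjusted p = 0.0383) were called lower. Over all genes 3024 were higher and 3582 lower, a split that turned to 4177 and 2536 when values were scaled by total reads. The same CORT_5w and CORT_15w libraries enter the comparisons with vehicle, so these values add no independent support to them.

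In vehicle animals the same step in time gave no call in any of the 30 (limma, 0 of 16581 genes, 0.0% called; 997 genes, or 6.01%, and 2 of the 30, Col3a1 and Col5a2, at an unadjusted p under 0.05, and 0 genes by voom). The values leaned low all the same: only 2 of the 30 log2 differences, those of Col20a1 and Col9a3, were above 0 to 2 decimals, with a median of -0.25 against 0.00 over all genes tested. Col3a1 averaged 170 ± 33.7 FPKM in VEH_15w and 267 ± 70.2 FPKM in VEH_5w (-0.64 ± 0.29 on the log2 scale, adjusted p = 0.828). Age, time on treatment and the date of sampling cannot be told apart in this step.

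The genes most like Col6a1 over the 20 libraries, by Pearson's r of log2 of FPKM + 1, were Serpinf1 (0.975), Lbp (0.972), Ifngr2 (0.969), Cercam (0.967) and Hn1l (0.966). Those most like Col1a1 were Adamts2, the procollagen N-proteinase (0.893), Col1a2 (0.884), Plxnb2 (0.790), Csk (0.787) and Emilin1 (0.785). These values are descriptions over libraries of 4 groups that share the difference between the groups, and carry no test.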

How the data were processed

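RNA from mouse visceral adipose tissue was extracted with a lipid tissue kit, per the labels' protocols. The authors deposited FPKM values for 24338 genes in 20 libraries. TopHat, Bowtie and DESeq2 are named in the submitters' processing notes, with build mm9 and no versions. The authors also deposited log2 fold changes and p-values for each time. Reads were recovered from the deposited FPKM: 100.0% of 382438 values were whole numbers of reads at a tolerance of 0.05. The value of a single read was searched for each gene so that its values became whole at that tolerance. The share is therefore not a separate check of the reads, least of all for genes with few values above 0.

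The FPKM values, already scaled by the authors' size factors, were tested as log2(FPKM + 1), which understates the change of low genes. limma 3.58.1 in R 4.3.3 (trended variance) was fitted to the means of the 4 groups over 20 libraries, for 16581 genes with at least 0.3 FPKM in 5 libraries. Adjusted p-values are Benjamini-Hochberg over all these genes, and a gene was called below 0.05. The fit was tested on simulated data. Python 3.11.15, numpy 2.4.6 and pandas 2.3.3 were used for the summaries.

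The members, gene lists, markers and tests were chosen with earlier results of these data known. Values per library are given for the members of highest mean level in each family, and for members chosen by outcome in these same data. The latter were the largest rises and falls among called members and those called in the difference of effects. For each pathway list up to 3 rises and 3 falls by adjusted p are given. Alternatives were other pseudocounts, filters and scalings, voom on recovered reads, the groups compared alone, a replicate block, each library left out, and 7 libraries left out. The histone mark (ChIP) libraries were not analysed here.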

Additional observations from a re-analysis of the deposited data

Results flagged for a closer look

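In 11 of 120 sets of 5 libraries (30 genes in 4 groups), the highest or lowest library lay far from the other 4. The cut used would mark about 1 in 20 sets of normal values. The 120 sets share libraries and FPKM need not be normal, so the 11 were not tested against that rate. In the CORT_5w group Col12a1 was low in library 3 (5.72 FPKM), and Col23a1 (4.75 FPKM), Col4a5 (12.9 FPKM) and Col4a6 (5.61 FPKM) were high in library 4. In the CORT_15w group Col3a1 (546 FPKM), Col6a5 (102 FPKM) and Col28a1 (2.96 FPKM) were high in library 4, and Col4a1 (158 FPKM) and Col6a1 (48.1 FPKM) were low in library 3. In the VEH groups Col9a3 was high in VEH_15w library 5 (0.691 FPKM) and Col4a4 in VEH_5w library 4 (5.65 FPKM).

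In 4 of the 30 genes the effect of corticosterone differed between the times in limma's test of the difference, beside 15.5% of all genes called. The difference of effects on the log2 scale, 15 weeks minus 5 weeks, was 2.04 for Col6a5, 1.72 for Col6a6, 0.77 for Col10a1 and -2.0 for Col12a1. The calls of Col6a5 and Col10a1 were lost without the 7 libraries (limma, adjusted p = 0.0819 and 0.178), and without one or another single library.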

How the results depend on the processing

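No called result changed direction under any alternative run. Without the 7 libraries with liver, testis or epididymis transcripts, 1 collagen gene was called lower at 5 weeks, 0 were called and 0 called higher at 15 weeks, 7 differed between the times (1 higher, 6 lower), and 2 were higher in CORT_15w than in CORT_5w. This leaves 2 to 4 libraries a group. The authors' deposited table called 12 at 15 weeks (11 higher, 1 lower). A floor of 0.5 FPKM gave 2 lower differences of effects. Quantile normalization gave 9 calls, 5 lower, between CORT_15w and CORT_5w, beside 2683 higher and 2937 lower over all genes. The cause was not tested.

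With each library left out in turn, the calls at 5 weeks numbered 14 to 17 (11 to 14 higher, 3 to 4 lower), at 15 weeks 3 to 9 (3 to 9 higher, 0 to 0 lower) and for the difference of effects 2 to 9 (1 to 4 higher, 1 to 6 lower). CORT_15w against CORT_5w gave 11 to 17 (4 to 5 higher, 7 to 13 lower), and VEH_15w against VEH_5w 0 to 0. Over all genes the same runs gave 3081 to 3678 higher and 2901 to 3477 lower at 5 weeks. At 15 weeks they gave 257 to 720 higher and 422 to 1263 lower. For the difference of effects they gave 627 to 1323 higher and 1061 to 1905 lower, and between the CORT groups 2549 to 3207 higher and 2993 to 3699 lower. The replicate block gave 16 calls at 5 weeks, 6 at 15 weeks, 4 differences of effects, 14 between the CORT groups and 0 between the VEH groups, as without it. The deviations of same-numbered libraries had correlations of -0.51 to 0.439. Differently numbered libraries were not compared, so these values do not show whether the numbers pair the libraries.

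Scaling by total reads moved the median log2 value of all genes to 0.104 for the difference of effects, against -0.0138, and to 0.11 for CORT_15w minus CORT_5w, against 0.0135. The fit of the compared groups alone has no value for the difference of effects. The histone mark alternative was not run. Col9a3 rested on 6 to 77 reads per library, which limits its precision.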
